A study of Homo sapiens with 24 samples.

Results

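Metallothioneins are small, cysteine-rich proteins that bind zinc and copper and can take up cadmium. In humans their functional genes lie side by side on the long arm of chromosome 16, and transcription of many of them is raised by metals through the zinc finger factor MTF1, which binds metal response elements in their promoters, and by glucocorticoids and oxidative stress. The 10 genes described here were chosen by name: MT1A, MT1B, MT1E, MT1F, MT1G, MT1H, MT1L, MT1M, MT1X and MT2A. They are 10 of the 27263 gene names on the array. Among 34127 different non-control probes of the array, 12 carried the name of a member, 2 each for MT1X and MT1H and 1 for each other gene.

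The RNA came from HCT-116 cells, an established line of human colorectal carcinoma, and was hybridised to 24 1-colour Agilent arrays. All cells, the untreated controls included, were of 1 stably transfected clone that carries the Tet repressor and a doxycycline-inducible, FLAG-tagged form of Tcf4 (DN-Tcf4) that is dominant negative, so that it blocks the switching on of Wnt target genes by beta-catenin. The 4 groups were left untreated (Ctl), given 5 mM sodium butyrate (NaB), a histone deacetylase inhibitor, given 4 µg/ml doxycycline (Doxy), or given both agents (DoxyNaB), and each of 6 experiments gave 1 array per group. Per the study's methods doxycycline came first and butyrate was then present together with it for 17.5 hr. NaB/Ctl and DoxyNaB/Doxy give the response to butyrate without and with doxycycline, and the difference between them, the interaction, asks whether DN-Tcf4 alters that response. No array held doxycycline-treated cells without the transgene, so an effect of the drug and one of DN-Tcf4 cannot be told apart, and in these bulk samples fewer cells with a transcript and less of it per cell cannot be told apart either.

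The arrays differed in background. Between 52.5% and 88.1% of spots were well above background, with the arrays of experiments 2 to 4 all at 78.3% or more and the others at 62.4% or less. AXIN2, a direct Wnt target, changed by -0.58 in Doxy/Ctl and by -2.53 in DoxyNaB/NaB on the log2 scale (limma adjusted p = 0.00289 and 2.63e-11). Of 3 measured probes of TCF7L2, the gene of Tcf4, none was called in Doxy/Ctl, with log2 changes of 0.30, -0.17 and 0.36, and in DoxyNaB/NaB the same probes changed by 4.46, 2.96 and -1.25, each of them called. With butyrate alone, in NaB/Ctl, they changed by 1.90, 0.91 and -0.08, and only the first was called (limma adjusted p = 0.000468, 0.0294 and 0.777). Of 8 markers of colon epithelium, 5 were well above background on all 24 arrays, and none of 11 markers of leukocytes, endothelium and fibroblasts was on all 24. Those 11 were not absent by this measure: they were well above background on 0 arrays (COL3A1) to 23 arrays (COL1A1 among others). Their part in the results was not tested.

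A metallothionein promoter shows the kind of sequence through which metals act on these genes. RefSeq (GRCh38.p14) entries were held for 4 members, MT2A, MT1B, MT1H and MT1X, and the 250 bases before the transcription start are shown for MT2A, the isoform most widely expressed in tissues, and for MT1X and MT1H, which had a pair of probes each. The capitals mark the core of the metal response element, searched as TGCACNC or TGCGCNC on both strands.
MT2A, chr16:56608334-56608583, plus strand: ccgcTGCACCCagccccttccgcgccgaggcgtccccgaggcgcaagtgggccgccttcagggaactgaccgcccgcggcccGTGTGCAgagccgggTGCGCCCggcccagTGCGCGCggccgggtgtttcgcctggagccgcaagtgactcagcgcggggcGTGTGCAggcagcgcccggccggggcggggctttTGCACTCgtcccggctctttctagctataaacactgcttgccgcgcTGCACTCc
MT1H, chr16:56669564-56669813, plus strand: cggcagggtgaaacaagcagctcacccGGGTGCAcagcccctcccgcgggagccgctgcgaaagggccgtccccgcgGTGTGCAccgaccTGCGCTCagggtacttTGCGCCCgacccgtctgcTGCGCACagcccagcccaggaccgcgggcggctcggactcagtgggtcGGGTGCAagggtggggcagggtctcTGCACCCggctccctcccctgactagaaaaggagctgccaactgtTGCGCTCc
MT1X, chr16:56682220-56682469, plus strand: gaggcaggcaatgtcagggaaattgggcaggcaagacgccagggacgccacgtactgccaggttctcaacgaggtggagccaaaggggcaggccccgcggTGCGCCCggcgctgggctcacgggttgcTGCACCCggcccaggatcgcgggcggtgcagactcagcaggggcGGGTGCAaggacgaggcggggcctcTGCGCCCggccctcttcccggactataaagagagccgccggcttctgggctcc
These windows held 7 cores in MT2A, 8 in MT1H and 4 in MT1X, and the MT1B window held 3. Of 35116 promoters searched over the same length, 24.8% held at least 1 core, 1.58% at least 3 and 0.370% at least 4. TGACTCA, a motif of AP-1 factors, occurred once in the windows of MT2A and MT1B and in 4.20% of all promoters. These counts describe letters in the window and do not show binding.

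The members are so alike that a probe may take up RNA of more than 1 gene. In NCBI36, the build of the array's annotation, the member probes spanned 74.7 kb of chromosome 16, from the MT2A probe at chr16:55200833-55200892 to a probe of MT1X at chr16:55275463-55275522. The MT1A probe is also listed for a transcript of MT1M, and 1 of the MT1X probes, at chr16:55274583-55274642, is also listed for a transcript of MT1B. That MT1X probe, 1 of the MT1H probes (chr16:55261949-55262334, across an exon junction) and the MT1A probe (chr16:55230706-55231309, likewise) read through without a stop codon in a frame with 7, 8 and 8 cysteine codons, and are called coding probes here. Their sequences are shown because parts of them are the same letters. Capitals mark the 26 bases that the MT1X and MT1H coding probes share and, in the MT1A probe, the 27 bases that it shares with the MT1H coding probe.
MT1X coding probe: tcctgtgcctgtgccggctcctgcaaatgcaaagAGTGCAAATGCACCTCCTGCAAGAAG
MT1H coding probe: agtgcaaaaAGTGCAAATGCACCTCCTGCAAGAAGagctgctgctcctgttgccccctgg
MT1A probe: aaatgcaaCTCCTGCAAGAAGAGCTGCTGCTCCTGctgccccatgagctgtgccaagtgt
The other probe of MT1X lies 880 bases further along the gene and is called the MT1X 3′ probe. Its first 30 bases are shown beside those of the probes of MT1F and of the second MT1H probe (the MT1H 3′ probe, chr16:55262403-55262462), which start at the same point of related sequence. Capitals mark bases that differ from the MT1X 3′ probe.
MT1X 3′ probe: tgccaggacagctgtgctctcagatgtaaa
MT1F probe, chr16:55250578-55250637: tgccaggacaAcCTtTctcCcagatgtaaa
MT1H 3′ probe: tgTcGggacagcCCtgctGtcagatgAaaa
Over all 60 bases the MT1F probe differed from the MT1X 3′ probe at 11 positions and the MT1H 3′ probe at 16. How much RNA of one gene bound to the probe of another was not tested, so values are those of a probe, and levels are not compared between probes as amounts of RNA.

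Butyrate raised the metallothioneins. In NaB/Ctl all 10 probes that could be tested were higher with butyrate and 8 of them rose, a rise being a fold over 2 with adjusted p below 0.01, against 20.7% of all 18962 probes tested. By the adjusted p alone all 10 were higher, against 40.0% of all probes. The NaB and Ctl arrays did not overlap for 9 of the 10, all but MT1M, against 43.1% of all probes. The median change of the 10 probes was 1.68 on the log2 scale, against 0.17 over all probes tested. The increase in the presence of doxycycline was of similar breadth, with 7 of 10 probes rising in DoxyNaB/Doxy against 18.3% of all probes and a median change of 1.58 against 0.10. There all 10 were higher by the adjusted p alone, against 37.3% of all probes, and 8 did not overlap, all but MT1E and MT1M, against 41.5%. The remaining 2 probes, of MT1G and the MT1H 3′ probe, were near background and were left out of the tests. Scaled to the median of each array after a floor of 5, which changes the scaling and the floor together, the median change of all probes in NaB/Ctl moved from 0.17 to -0.58 and the share of called probes that were higher from 65.3% to 21.1%. The 10 metallothionein probes then changed by 0.12 to 2.85 in NaB/Ctl, all upwards, and 3 of them (MT2A, MT1L and MT1X 3′) were called, against 8.65% of all probes called higher there.

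**Figure D1:**
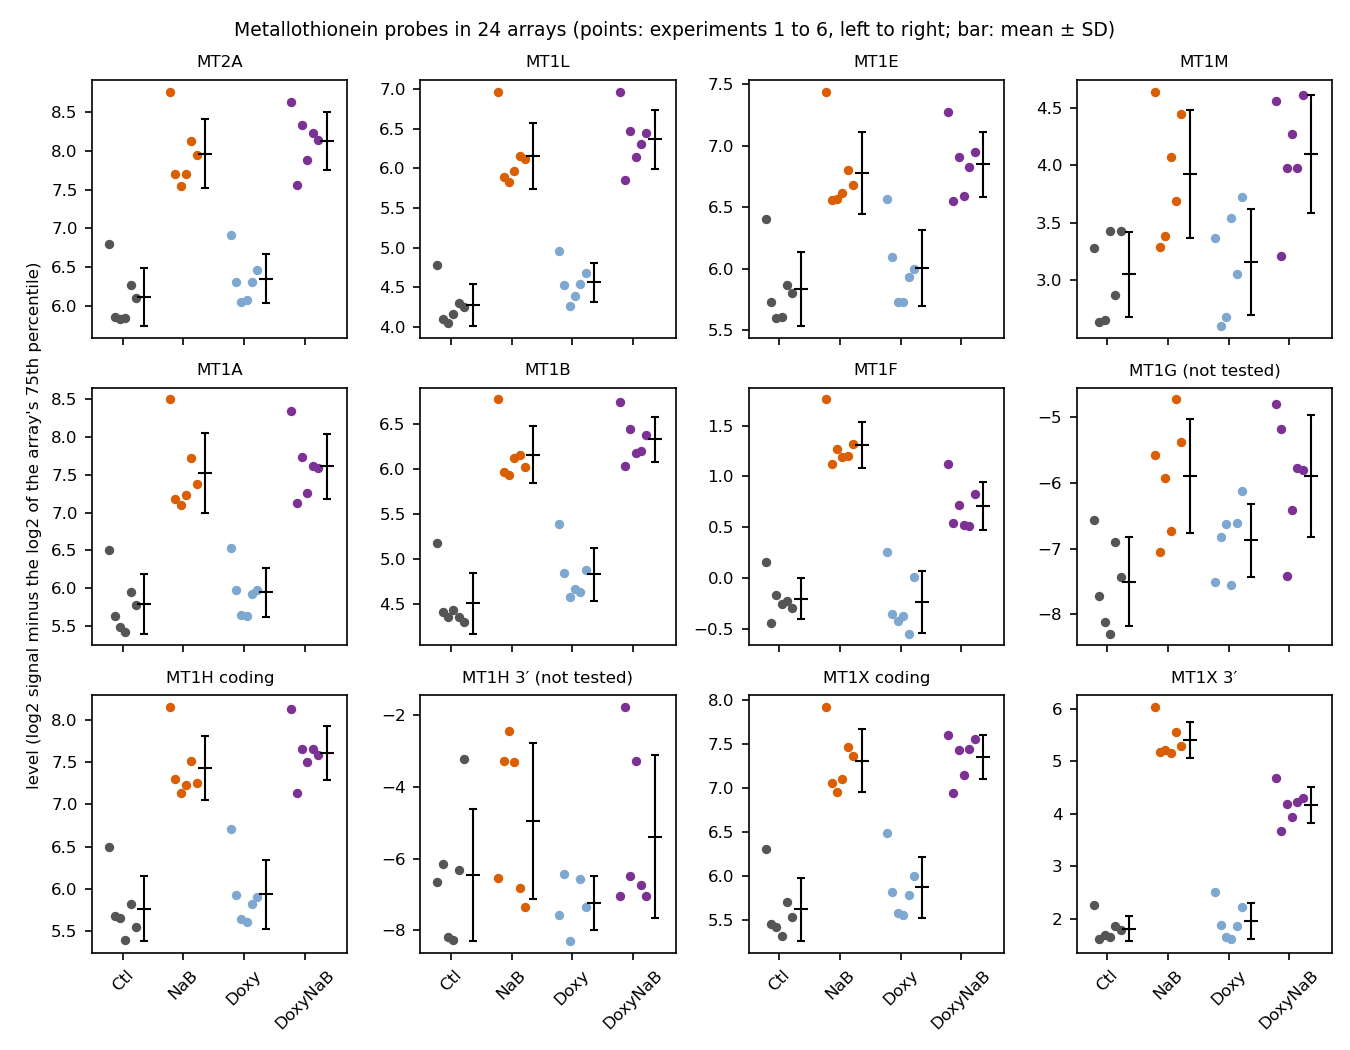
Level of each metallothionein probe on each array (vertical axis, log2 signal minus log2 of the array's 75th percentile; a separate scale per panel) by treatment (horizontal axis), with points for experiments 1 to 6 from left to right and bars for the mean ± SD. In 8 of the 10 tested probes the mean of the NaB arrays lies more than 2-fold above that of the Ctl arrays, and in the MT1F and MT1X 3′ panels the DoxyNaB arrays lie below all NaB arrays.

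MT2A encodes the main metallothionein of many tissues. Its level, log2 of the signal minus log2 of the array's 75th percentile, was 5.83 to 6.80 in the 6 Ctl arrays (median 5.97), 7.54 to 8.77 with NaB (median 7.83), 6.04 to 6.91 with Doxy (median 6.30) and 7.56 to 8.64 with both (median 8.18). The groups with butyrate did not overlap those without it. MT2A changed by 1.85 ± 0.10 (SE, n = 6) in NaB/Ctl, or 3.61-fold, and by 1.78 ± 0.10 in DoxyNaB/Doxy, with limma adjusted p = 1.3e-11 and 2.05e-11. By experiment the NaB/Ctl change was 1.71 to 1.97, a narrower range than that of DoxyNaB/Doxy, 1.26 to 2.29. The processed signal reached 267744 on 1 DoxyNaB array, and no array was marked as saturated for any member probe.

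The MT1L probe, of a transcript listed as non-coding, had levels of 4.05 to 4.78 in Ctl (median 4.21), 5.83 to 6.97 with NaB (median 6.04), 4.26 to 4.96 with Doxy (median 4.53) and 5.86 to 6.96 with both (median 6.38). It changed by 1.88 ± 0.09 (SE, n = 6) in NaB/Ctl and by 1.81 ± 0.09 in DoxyNaB/Doxy (limma adjusted p = 2.58e-12 and 4.11e-12). No butyrate array fell within the range of the arrays without butyrate.

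Levels on the MT1B probe were 4.30 to 5.18 in Ctl (median 4.38), 5.93 to 6.77 with NaB (median 6.07), 4.57 to 5.38 with Doxy (median 4.75) and 6.03 to 6.74 with both (median 6.28), again without overlap. MT1B, one of the metal-binding isoforms of the cluster, changed by 1.65 ± 0.08 (SE, n = 6) in NaB/Ctl, or 3.15-fold, and by 2.82-fold in DoxyNaB/Doxy (limma adjusted p = 2.12e-12 and 7.51e-12).

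The 3 coding probes, of MT1A, MT1H and MT1X, gave nearly the same picture. On the MT1A probe levels were 5.42 to 6.50 in Ctl (median 5.70), 7.10 to 8.50 with NaB (median 7.31), 5.63 to 6.53 with Doxy (median 5.94) and 7.13 to 8.35 with both (median 7.61). On the MT1H coding probe they were 5.40 to 6.50 in Ctl (median 5.67), 7.13 to 8.16 with NaB (median 7.27), 5.61 to 6.71 with Doxy (median 5.86) and 7.13 to 8.13 with both (median 7.62). In both probes every butyrate array was above every array without it. In NaB/Ctl MT1A changed by 1.73 ± 0.10, MT1H by 1.66 ± 0.09 and MT1X by 1.69 ± 0.09 (SE, n = 6), with limma adjusted p = 3.23e-11, 1.09e-11 and 1.41e-11. In DoxyNaB/Doxy the same probes changed by 1.67 ± 0.10, 1.68 ± 0.09 and 1.48 ± 0.09.

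The MT1E and MT1M probes were higher with butyrate but did not pass the 2-fold threshold. Beside the MT1E probe, on the same strand, lies one named for ENST00000330439 that rose by 3.29 in NaB/Ctl (described below). Whether both take up the same RNA was not tested. The MT1E probe had levels of 5.60 to 6.41 in Ctl (median 5.76), 6.56 to 7.44 with NaB (median 6.65), 5.73 to 6.57 with Doxy (median 5.96) and 6.55 to 7.27 with both (median 6.87). The NaB and Ctl arrays did not overlap, whereas the DoxyNaB and Doxy arrays did. The change was 0.94 ± 0.07 (SE, n = 6) in NaB/Ctl and 0.84 ± 0.07 in DoxyNaB/Doxy, 1.92-fold and 1.79-fold, so neither passed the 2-fold threshold although both adjusted p were under 0.01 (limma adjusted p = 2.2e-09 and 1.04e-08). MT1M levels were 2.64 to 3.43 in Ctl (median 3.08), 3.29 to 4.64 with NaB (median 3.88), 2.60 to 3.72 with Doxy (median 3.21) and 3.22 to 4.61 with both (median 4.12), with overlap in both comparisons. Its change was 0.87 ± 0.10 in NaB/Ctl and 0.94 ± 0.10 in DoxyNaB/Doxy, under 2-fold in both, and higher with butyrate in 6 of 6 experiments each time (limma adjusted p = 3.78e-07 and 1.43e-07).

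MT1G and the MT1H 3′ probe gave no measurable level in most arrays. The MT1G probe was well above background on 1 of 24 arrays, a DoxyNaB array, and the MT1H 3′ probe on 1 Ctl, 3 NaB, 0 Doxy and 2 DoxyNaB arrays. No fold is given for either. The MT1H coding probe, in contrast, was well above background on every array, and it is the one that shares 27 and 26 bases with the probes of MT1A and MT1X.

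**Figure D2:**
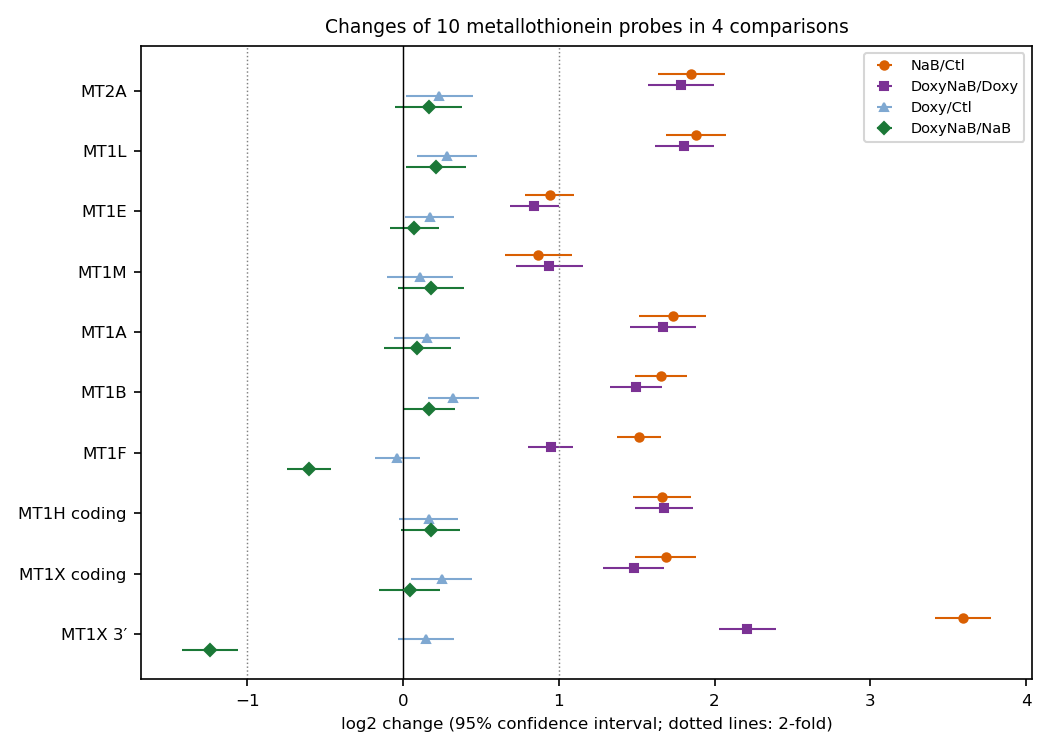
Log2 change (horizontal axis, points with 95% confidence intervals, dotted lines at 2-fold) of the 10 tested metallothionein probes, ordered along the chromosome (vertical axis), in NaB/Ctl, DoxyNaB/Doxy, Doxy/Ctl and DoxyNaB/NaB. The changes with butyrate lie between 0.84 and 3.60, and in DoxyNaB/NaB the MT1X 3′ and MT1F probes lie at -1.24 and -0.60 while the other 8 lie between 0.04 and 0.21.

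Doxycycline altered the response of 2 probes. The interaction, NaB/Ctl minus DoxyNaB/Doxy, was called at an adjusted p under 0.01 for the MT1X 3′ and MT1F probes, 2 of 10, both positive, against 1.02% of all probes called positive. On these 2 probes the response to butyrate was smaller with doxycycline. The same 2 probes were called lower in DoxyNaB/NaB, where 1.87% of all probes were. Their NaB and DoxyNaB arrays did not overlap, against 1.66% of all probes. For the other 8 probes neither was called. The MT1F and MT1X 3′ probes also had the lowest median processed signals in Ctl, 665 and 2812. On the other 8 these were 6065 (MT1M) to 56549 (MT2A). Whether the strength of the signal bore on this contrast was not tested.

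On the MT1X 3′ probe levels were 1.62 to 2.26 in Ctl (median 1.74), 5.16 to 6.04 with NaB (median 5.26), 1.61 to 2.52 with Doxy (median 1.88) and 3.67 to 4.69 with both (median 4.20). The NaB arrays were above all DoxyNaB arrays, and both were above all arrays without butyrate. MT1X rose on this probe by 3.60 ± 0.09 (SE, n = 6) in NaB/Ctl, or 12.1-fold, and by 2.21 ± 0.09 in DoxyNaB/Doxy, or 4.63-fold (limma adjusted p = 7.87e-16 and 1.29e-13). The interaction was 1.38 ± 0.12 (limma adjusted p = 1.77e-06), positive in 6 of 6 experiments and between 0.99 and 1.78 in each. In DoxyNaB/NaB the probe changed by -1.24 ± 0.09 (limma adjusted p = 3.47e-08), lower in 6 of 6 experiments. Within experiments 2 to 4, which were scanned together, the interaction was 1.31 and within experiments 5 and 6 it was 1.38, with adjusted p = 0.287 and 0.133 in these smaller limma fits. Scaled to the median after the floor it was 1.19, with adjusted p = 0.377. The methods' paired test called it without adjustment, as it did for MT1F, and gave 0.0284 after Benjamini-Hochberg adjustment, above the threshold.

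The MT1F probe, that of another metal-binding isoform, had levels of -0.44 to 0.16 in Ctl (median -0.24), 1.12 to 1.76 with NaB (median 1.24), -0.55 to 0.25 with Doxy (median -0.36) and 0.52 to 1.12 with both (median 0.63). The highest DoxyNaB array, at 1.120, was just under the lowest NaB array, at 1.123. MT1F changed by 1.51 ± 0.07 (SE, n = 6) in NaB/Ctl and by 0.95 ± 0.07 in DoxyNaB/Doxy, the second of which was under 2-fold at 1.93-fold (limma adjusted p = 8.36e-13 and 4.82e-10). The interaction was 0.57 ± 0.10 (limma adjusted p = 0.00196), positive in 6 of 6 experiments, and the DoxyNaB/NaB change was -0.60 ± 0.07 (limma adjusted p = 1.41e-05). This interaction did not pass the threshold when experiment 1, 2 or 4 was left out, with adjusted p = 0.0245, 0.0142 and 0.0195, nor without the pairing by experiment, at 0.439. It did not pass either after normexp background correction, with median scaling after a floor, without the filter, within the sets of experiments scanned together or by the methods' paired test with adjustment. Its size was 0.38 to 0.64 over all settings tried.

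The MT1X coding probe did not share the pattern of the 3′ probe. Its levels were 5.32 to 6.31 in Ctl (median 5.49), 6.96 to 7.92 with NaB (median 7.23), 5.56 to 6.49 with Doxy (median 5.80) and 6.95 to 7.60 with both (median 7.43), so that NaB and DoxyNaB overlapped. Its interaction was 0.21 ± 0.13 (SE, n = 6, limma adjusted p = 0.587), with a 95% confidence interval of -0.07 to 0.48 that lies below the interval of the 3′ probe, 1.13 to 1.64. The change of the 3′ probe exceeded that of the coding probe by 1.91 ± 0.18 (SD, n = 6) in NaB/Ctl and by 0.73 ± 0.18 in DoxyNaB/Doxy. The difference of these differences was 0.97 to 1.31 in the 6 experiments. As it is taken within arrays, it does not depend on how arrays were scaled.

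**Figure D3:**
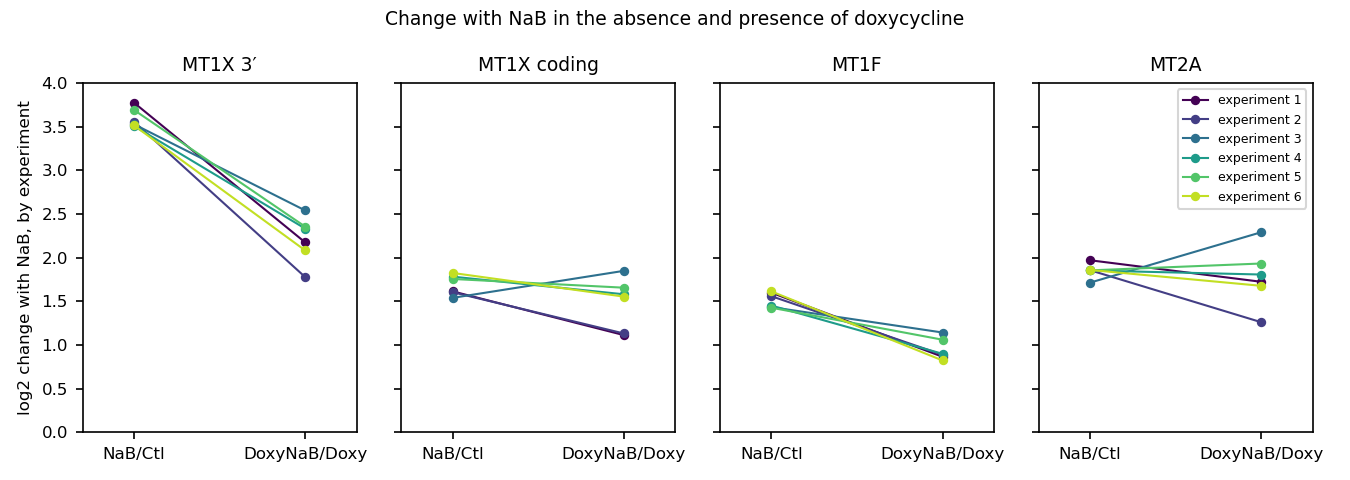
Log2 change with butyrate (vertical axis) in each of the 6 experiments (lines) without doxycycline (NaB/Ctl) and with it (DoxyNaB/Doxy), for both MT1X probes, MT1F and MT2A. All 6 lines fall for the MT1X 3′ and MT1F probes, whereas 5 of 6 fall for the MT1X coding probe and 4 of 6 for MT2A.

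For the remaining members the interaction was not called. It was 0.07 for MT2A (95% confidence interval -0.23 to 0.37), 0.07 for MT1L (-0.20 to 0.34), 0.06 for MT1A (-0.24 to 0.36), -0.01 for MT1H coding (-0.28 to 0.25) and -0.07 for MT1M (-0.37 to 0.23). For MT1E it was 0.10 (-0.12 to 0.32) and for MT1B 0.16 (-0.08 to 0.39). Each interval includes 0, and with 6 arrays a group an interaction of any size inside it remains possible. The intervals are not limits of detection: they are not adjusted for the number of probes, and a call needed an adjusted p under 0.01. These intervals hold for this processing only: after normexp background correction the interaction was 0.50 for MT2A, 0.37 for MT1A and 0.35 for MT1B, none of them called.

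Doxycycline alone changed no member past the threshold. In Doxy/Ctl 0 of 10 probes were called, against 0.501% of all probes, while 5 of 10 had an unadjusted p under 0.05 in limma, against 12.6% of all probes. The changes lay between -0.03 for MT1F and 0.32 for MT1B, and 9 of 10 were upwards. MT1B, 0.32 ± 0.08 (SE, n = 6), was higher in 6 of 6 experiments and had the lowest adjusted p, 0.0539 by limma. Quantile normalisation called 1 probe, MT1L, at 0.35, against 0.338% of all probes. The methods' paired test without adjustment called 3, which were MT1B, MT1L and the MT1X coding probe, against 7.09% of all probes.

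The member probes varied together between experiments and arrays. Averaged over the 4 groups, the level was highest in experiment 1 for all tested probes except that of MT1M, which was highest in experiment 6. After treatment and experiment means were removed, the residuals of the 28 pairs among the 8 probes other than MT1F and MT1X 3′ correlated with a median r of 0.79 (range 0.31 to 0.92, 24 arrays). Those of MT1F with the other 9 probes ran from 0.17 with MT1M to 0.66 with MT1X 3′. All these points share their arrays, and pairs of probes that share sequence may share target RNA. The same values were not computed over all probes, so whether they are particular to the family was not tested. In experiment 1 the arrays with butyrate lay on another slide and were scanned on another day than those without it, so slide and treatment cannot be told apart there. Without experiment 1 the same 8 probes were called in NaB/Ctl. The mean net signal of negative controls was highest on the DoxyNaB array of experiment 2 (249) and the NaB array of experiment 3 (161). Without these 2 arrays 8 member probes were called in NaB/Ctl, 8 in DoxyNaB/Doxy and 2 in the interaction.

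Of the 9 other probes with a metallothionein name, 6 could be tested. MT3, the brain isoform, changed by 0.52 ± 0.10 (SE, n = 6) in NaB/Ctl and 0.51 ± 0.10 in DoxyNaB/Doxy, below 2-fold (limma adjusted p = 0.00012 and 0.000157). The pseudogene MT1IP was well above background on all 12 arrays with butyrate but on 4 of 6 in Ctl and in Doxy, so that it entered the tests through the groups where it is high. Its fitted changes, which rest in part on arrays near background, were 2.46 ± 0.25 in NaB/Ctl and 1.58 ± 0.25 in DoxyNaB/Doxy, and its interaction of 0.88 ± 0.36 was not called (limma adjusted p = 0.3). A probe named for the Ensembl transcript ENST00000330439 (chr16:55218115-55218174, beside the MT1E probe) rose by 3.29 ± 0.15 in NaB/Ctl and by 3.34 ± 0.15 in DoxyNaB/Doxy. Another, named for ENST00000379816, rose by 3.00 ± 0.11 and 2.76 ± 0.11. Both rises passed the threshold, at limma adjusted p of 7.47e-13 or less in NaB/Ctl, and neither probe had a called interaction. The 2 probes of MTL5, a gene on another chromosome whose name means metallothionein-like, went otherwise. In NaB/Ctl 1 of them fell by 1.75 on the log2 scale and the other changed by -0.18 (limma adjusted p = 2.68e-06 and 0.56), and both were well above background on 6 of 6 Doxy arrays but on 1 and 3 NaB arrays. MT4, MT1DP and a probe named for ENST00000262499 were not well above background on enough arrays to be tested.

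**Figure D4:**
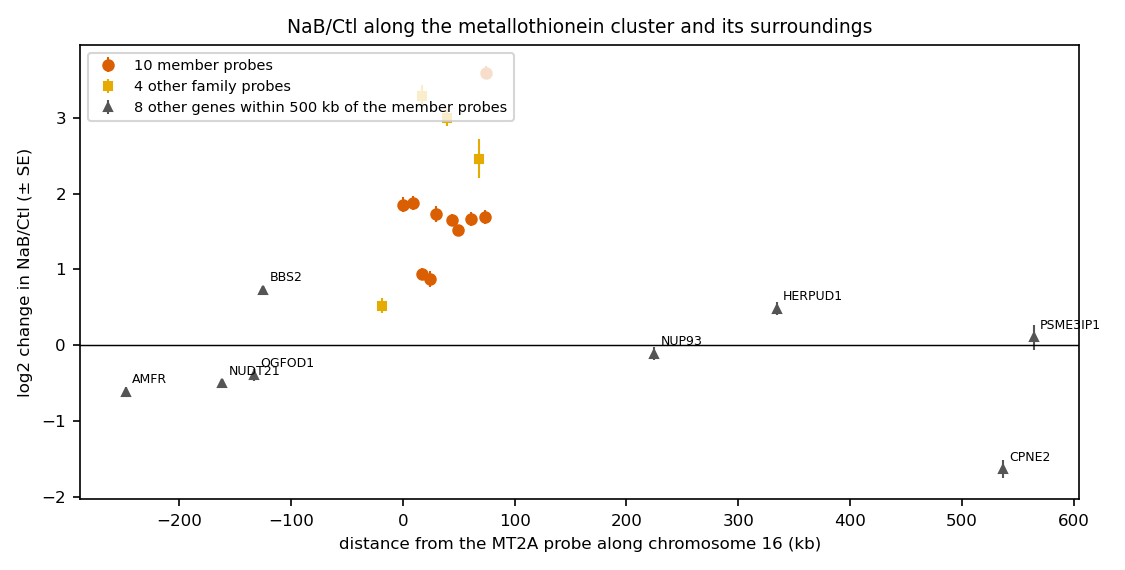
Log2 change in NaB/Ctl (vertical axis, ± SE) against the distance in kb from the MT2A probe (horizontal axis) for the 10 tested member probes, 4 other family probes of chromosome 16 (MTL5 lies elsewhere and is not plotted) and 8 other genes with a probe within 500 kb of the outermost member probes. The 14 plotted family probes lie above 0, from 0.52 to 3.60, and the 8 other genes lie from -1.64 to 0.73.

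The genes around the cluster did not rise with it. Of the 8 tested genes within 500 kb on either side, 0 rose in NaB/Ctl and 1 fell, CPNE2 at -1.64 ± 0.13 (SE, n = 6, limma adjusted p = 1.31e-09), and the same counts held in DoxyNaB/Doxy. Of 15150 genes tested, each by its brightest probe, 21% rose and 11.5% fell in NaB/Ctl, with a median change of 0.17, against a median of -0.26 for the 8 neighbours. BBS2 at 0.73 and HERPUD1 at 0.48 were the neighbours with the largest upward changes, both under 2-fold.

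Genes that move zinc across membranes were read beside all 15150 genes tested, of which 21% rose and 11.5% fell in NaB/Ctl. Of 5 tested zinc exporters 0 were called in NaB/Ctl, with a median change of 0.68. SLC30A1, the exporter at the cell surface that MTF1 also controls, had levels of -0.70 to -0.44 in Ctl (median -0.50) and 0.00 to 0.59 with NaB (median 0.52), without overlap. Its change was 0.97 ± 0.07 (SE, n = 6) in NaB/Ctl and 0.71 ± 0.07 in DoxyNaB/Doxy, just under and under 2-fold (limma adjusted p = 3.71e-10 and 2.7e-08). Of 11 tested zinc importers 0 rose and 1 fell, SLC39A1 at -1.37 ± 0.08, and the median change was -0.56.

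Among 7 tested regulators of metallothionein genes, which act at the promoters or on a factor that does, 1 rose and 2 fell in NaB/Ctl. Of all genes 21% rose and 11.5% fell there. MTF1, the metal-sensing factor, rose by 1.35 ± 0.08 (SE, n = 6) in NaB/Ctl and by 1.31 ± 0.08 in DoxyNaB/Doxy, with an interaction of 0.04 (limma adjusted p = 8.17e-11, 1.17e-10 and 0.94). Its level was -1.17 to -0.69 in Ctl (median -1.06) and 0.24 to 0.62 with NaB (median 0.34), without overlap. KEAP1, the inhibitor of the oxidative stress factor NRF2, fell by 2.58 in NaB/Ctl on the log2 scale. USF2, a helix-loop-helix factor, was the other that fell. NFE2L2, the gene of NRF2, was on the list but was not among the genes tested. Of 10 copper handling genes 4 rose and 1 fell, from ATP7B, a copper-exporting ATPase, at 2.28 ± 0.10 to CUTC at -1.71 ± 0.10. In DoxyNaB/Doxy the regulators and the copper genes had the same numbers of rises and falls, where 18.7% of all genes rose and 12.5% fell. No member of either list had a called interaction. Whether these short lists differ from all genes was not tested.

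In 2 further lists a member had a called interaction. Over all genes tested 21% rose and 11.5% fell in NaB/Ctl, and 18.7% rose and 12.5% fell in DoxyNaB/Doxy. Of 5 genes of glutathione synthesis 0 rose and 1 fell in NaB/Ctl, SLC7A11, the cystine transporter, at -2.13 ± 0.24 (SE, n = 6) against -4.02 ± 0.24 in DoxyNaB/Doxy, an interaction of 1.89 (limma adjusted p = 0.00305). SLC7A11 was also called in Doxy/Ctl, at 1.35, and not in DoxyNaB/NaB, at -0.55 (limma adjusted p = 0.0055 and 0.262). Of 7 glucocorticoid-responsive genes 5 rose and 0 fell in NaB/Ctl, and 4 rose and 0 fell in DoxyNaB/Doxy. Among those that rose, ZBTB16 was well above background on 4 of 6 Ctl and 5 of 6 Doxy arrays but on 6 of 6 in both butyrate groups. It thus entered the tests through the groups where it is high. FKBP5 went the other way, at -0.19 in NaB/Ctl and -0.25 in DoxyNaB/Doxy (limma adjusted p = 0.0395 and 0.00791). In the list 3 genes had a positive called interaction, against 1.11% of all genes. SGK1, a kinase induced by glucocorticoids, led the list and changed by 2.81 ± 0.09 in NaB/Ctl and 1.88 ± 0.09 in DoxyNaB/Doxy, an interaction of 0.94 (limma adjusted p = 0.000205). TSC22D3, also called GILZ, had an interaction of 0.92 and KLF9 one of 0.67, but in these genes Doxy/Ctl was itself called, at 0.96 and 0.58, unlike in MT1X and MT1F.

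**Figure D5:**
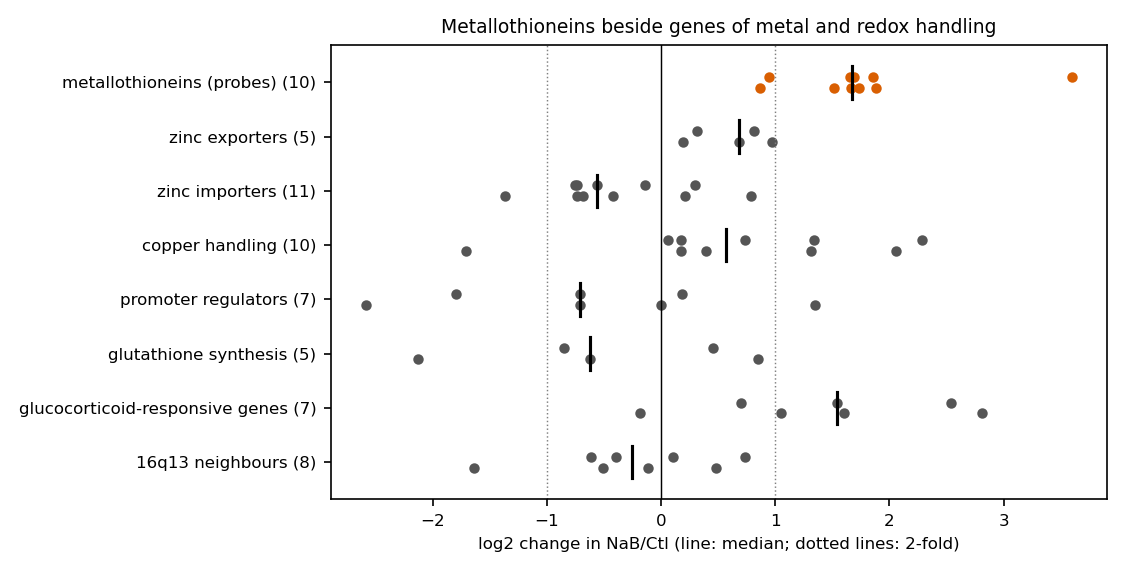
Log2 change in NaB/Ctl (horizontal axis) of each tested metallothionein probe and of each tested gene of 7 lists (rows, with the number of points), with a line at the median of each row and dotted lines at 2-fold. The median is 1.68 for the metallothioneins, 0.68 for zinc exporters, -0.56 for zinc importers and 1.54 for glucocorticoid-responsive genes.

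The genes most like MT2A over the 24 arrays, once each level was centred on its experiment, were SMARCD3, GSTT2, JUN, GSTT2B and BMERB1, with Pearson r of 0.993 to 0.995 among 18311 probes compared. GSTT2 and GSTT2B are near-identical copies whose probes may share RNA. JUN, a subunit of AP-1, changed by 3.27 in NaB/Ctl and 3.37 in DoxyNaB/Doxy, and SMARCD3, a subunit of the SWI/SNF remodelling complex, by 1.24 and 1.34. No such list could be made for MT1G, which was not measured. For the MT1X 3′ probe, a list added after its values were seen, the 5 were HES2, SERPINE2, SGK1, C1S and a probe named for ENST00000391418, with r of 0.991 to 0.996. HES2, a transcriptional repressor, changed by 3.08 in NaB/Ctl and 2.07 in DoxyNaB/Doxy. The arrays fall into groups with and without butyrate, so that r here is high for any gene with a similar set of group means.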

How the data were processed

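Total RNA of 24 samples was measured on Agilent 1-colour arrays. Per the file headers the images were read with Agilent Feature Extraction 9.5.3.1, and the deposited files hold its intensity values per spot, background-subtracted in the processed signal and not scaled between arrays. Control spots and outlier spots were left out, spots of a probe were averaged, and log2 of the processed signal minus that of the array's 75th percentile over spots was analysed. Probes well above background in all 6 arrays of at least 1 group were tested (18962) with limma 3.58.1 under R 4.3.3, all 24 arrays together and experiment as a block, as the study's paired test implies, with Benjamini-Hochberg adjustment over all probes. The pairing rests on the experiment numbers of the labels, and deviations of same-experiment arrays correlated with a median r of 0.60, from -0.22 (NaB and DoxyNaB of experiment 3) and then 0.22 upwards in the other 35 of 36 pairs. NaB/Ctl and DoxyNaB/Doxy were called at over 2-fold and adjusted p under 0.01, other comparisons at adjusted p under 0.01. On simulated data limma recovered 195 of 200 probes changed by 2 on the log2 scale in NaB/Ctl, among 18327 probes, and 89 of 100 in the interaction. The simulated interaction was also 2, larger than that of any member, the largest being 1.38. Recovery at the sizes found for members was not simulated. With experiment as a block, p-values rest on the spread left after treatment and experiment means are removed, and the number of experiments limits the precision. Nothing in the sources used here ties experiments to separate passages of the clone. Text names every member, other probes of the family, from each list the called genes of largest rise and fall with MTF1, SLC30A1 and any called interaction, and the 5 genes most like MT2A. The members, the lists and these rules were chosen with earlier results of these data known.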

Additional observations from a re-analysis of the deposited data

Results flagged for a closer look

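The response to butyrate differed with doxycycline, by the interaction term, for the MT1X 3′ probe (1.38 on the log2 scale) and for MT1F (0.57). Of the 40 sets of 6 arrays formed by 10 probes and 4 groups, 10 had a highest array that stood apart by Dixon's criterion. Every such array was from experiment 1. In NaB these were MT1F at a level of 1.76 (next 1.32), MT1E at 7.44 (next 6.80), MT1B at 6.77 (next 6.15), MT1L at 6.97 (next 6.16) and MT1H on its coding probe at 8.16 (next 7.52). In Ctl they were MT1E at 6.41 (next 5.87), MT1B at 5.18 (next 4.43), MT1L at 4.78 (next 4.30) and MT1X on its 3′ probe at 2.26 (next 1.86). In Doxy it was MT1H on its coding probe, at 6.71 (next 5.92). The cause was not tested.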

How the results depend on the processing

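The 8 and 7 probes called in NaB/Ctl and DoxyNaB/Doxy came to 3 in NaB/Ctl when arrays were scaled to the median after a floor of 5, where DoxyNaB/NaB and the interaction had 0, and stayed within 1.5 times in every other setting tried. Without the replicate block, that is, without the pairing by experiment, 1 probe each was called in DoxyNaB/NaB and the interaction in place of 2, and counts of 8, 7 and 0 were unmoved in the other comparisons. Experiments 2 to 4 or 5 and 6 alone gave 0 in both DoxyNaB/NaB and the interaction. The methods' paired t-test gave 1 and 0 after adjustment. Unadjusted it gave 2 in the interaction and 3 in Doxy/Ctl. The interaction had 1 with normexp background correction or no filter, and 1 to 2 with any 1 experiment left out. Doxy/Ctl had 1 after quantile normalisation. A 75th percentile over probes, an alternative chosen after seeing the data, moved no count.

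Of the single changes recomputed, those whose sign turned were not called, apart from the mean of both MT1X probes. In DoxyNaB/NaB normexp gave MT2A -0.061, MT1E -0.045, MT1A -0.094 and MT1X (coding probe) -0.084. In the interaction it gave MT1M 0.10 and MT1H 0.26, and raised MT2A to 0.50 and MT1A to 0.37, uncalled. Median scaling after the floor gave MT2A -0.12, MT1E -0.091, MT1B -0.034, MT1L -0.12 and MT1A -0.13, and experiments 5 and 6 gave MT1E -0.020 and MT1M 0.014. The mean of both MT1X probes in DoxyNaB/NaB was -0.60, which mixes their unlike changes. Leaving out 1 experiment at a time gave -0.10 to 0.022 for MT1F in Doxy/Ctl, and in DoxyNaB/NaB -0.016 to 0.14 for MT1A and -0.043 to 0.11 for MT1X (coding probe). In the interaction it gave -0.036 to 0.20 for MT2A, -0.0059 to 0.17 for MT1L, -0.0085 to 0.17 for MT1A, -0.12 to 0.029 for MT1M and -0.096 to 0.093 for MT1H (coding probe). The causes were not tested.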
